A study of Mus musculus with 8 samples.

Results

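The genes of platelet-derived growth factor (PDGF) signalling that are described here are the receptor genes Pdgfra and Pdgfrb, the ligand genes Pdgfa, Pdgfb, Pdgfc and Pdgfd, and a pair of stromal surface marker genes, Cd34 and Thy1. They were taken by symbol, and all 8 were found among the 52636 genes of each count table. RNA-seq libraries came from mouse malignant mesothelioma (MM), a cancer of the mesothelium that covers lung and chest wall, in 6 triple knockout samples (Nf2, Cdkn2a and Bap1 deleted) and 2 double knockout samples (Nf2 and Cdkn2a deleted). By their labels both groups carry deletions of Nf2, which encodes merlin, a regulator of the Hippo pathway, and Cdkn2a, which encodes cell cycle inhibitors. The triple group is labelled as deleted for Bap1 as well, which encodes a deubiquitinase of histone H2A. The study's title calls the mice conditional models, and the labels give neither the Cre driver nor the age, and describe cells kept in serum-containing medium. The comparison asks which genes differ once Bap1 is lost as well.

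PDGF ligands are secreted dimers that act mainly on cells of mesenchymal origin. They bind to receptor tyrosine kinases of class III, which pair up, phosphorylate each other and recruit adaptors and enzymes such as Shc, Src, phospholipase C gamma and phosphoinositide 3-kinase. The alpha receptor marks fibroblasts and other mesenchymal precursors, the beta receptor marks fibroblasts and the pericytes of small vessels, and human pleural mesothelioma is known to express both receptors and several ligands. CD34 is a sialomucin found on fibroblasts, endothelium and blood progenitors, and Thy1 (CD90) is a surface glycoprotein of fibroblasts, T cells and neurons.

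Depth was 28326756 to 30232440 counts in the triple samples, against 32082535 and 26847202 counts in double samples 1 and 2. Every member was well counted, from 346 reads for Pdgfd to 16062 reads for Cd34 in any sample. Levels are CPM, counts brought to a common library size after TMM scaling, and a gene was called where the Benjamini-Hochberg adjusted p of edgeR's quasi-likelihood test was under 0.05 over the 17709 genes tested. Bap1 transcripts were counted at 43.1 to 72.1 CPM in the triple samples and at 106 and 71.2 CPM in the double samples (adjusted p = 0.122 by edgeR). Nf2, labelled as deleted in both groups, was at 62.7 to 100.3 CPM in the triple samples and 165 and 109 CPM in the double samples, and Cdkn2a at 4.05 to 8.76 CPM in the triple samples and 1.54 and 5.16 CPM in the double samples. Transcripts of all 3 genes were thus counted in every sample, and as a count over the whole gene can include exons outside a deleted part, these levels do not check the labels. Double sample 1 stood apart, with a TMM factor of 0.771 against 0.994 to 1.1 in the other samples, and with it left out the number of genes called was 315 in place of 1478. The mesothelial marker Msln was counted in all samples, at 12.6 to 194 CPM in the triple samples and, with no overlap, 251 and 342 CPM in the double samples (adjusted p = 0.291 by edgeR), while the mesothelial gene Upk3b was at 173 CPM in triple sample 3 and at no more than 0.365 CPM in the other triple samples and 0.081 CPM in the double samples. In these bulk samples fewer cells of a type and less RNA per cell cannot be told apart.

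Pdgfra and Cd34 rose in the triple knockout samples, 3.55-fold and 3.24-fold by the fit, and the groups did not overlap for either gene. The other 6 members did not pass the test: Pdgfrb, all 4 ligand genes and Thy1 had values in the triple samples that overlapped those of the double samples. The 2 members called are 25% of the 8, both called higher, against a background of 2.94% of all genes tested that were called higher and 8.35% called in either direction. The same 2 members had no overlap between groups, against a background of 24.1% of all genes tested, or 12.8% with the triple samples higher. As the members were chosen with earlier results of these data known, these shares do not test the set. None of the other 6 had an unadjusted p under 0.05, which 27.9% of all genes tested had. The median log2 fold change was 0.1 over the 8 members and 0.02 over all genes tested.

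Under other settings the members called were again Pdgfra, Cd34 or neither. Both were called with DESeq2, where 8.52% of genes were called higher, limma-voom (2.29%), RLE scaling (2.98%), no filter on low counts (1.45%) and a filter at 1 CPM (3.11%). Pdgfra alone was called with upper-quartile scaling (2.93%), with library size only (2.4%), and without triple replicate 2 (1.85%) or 3 (1.86%). Cd34 alone was called without double replicate 2 (13.7%). Neither was called with the description code as a term (2.08%), within code SN930 (4.86%) or the other codes (0%), without double replicate 1 (0.553%), or without triple replicates 1 (1.23%), 4 (1.55%), 5 (1.68%) and 6 (1.58%).

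The sequences shown here are the 250 bases before the RefSeq start of Pdgfra and of Cd34, because these are the members called higher. They are RefSeq promoter sequences on GRCm38.p6, plus strand, 5′ to 3′, at chr5:75152001-75152250 and chr1:194938571-194938820, and capitals mark each CG dinucleotide. RefSeq starts differ from the gene starts in the files, so the Pdgfra window ends short of the start given for the gene and the Cd34 window reaches just past it.
Pdgfra: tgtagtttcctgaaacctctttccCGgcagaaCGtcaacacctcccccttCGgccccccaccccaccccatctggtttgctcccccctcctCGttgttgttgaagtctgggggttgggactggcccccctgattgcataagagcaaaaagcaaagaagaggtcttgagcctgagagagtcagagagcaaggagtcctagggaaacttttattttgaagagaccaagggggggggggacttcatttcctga
Cd34: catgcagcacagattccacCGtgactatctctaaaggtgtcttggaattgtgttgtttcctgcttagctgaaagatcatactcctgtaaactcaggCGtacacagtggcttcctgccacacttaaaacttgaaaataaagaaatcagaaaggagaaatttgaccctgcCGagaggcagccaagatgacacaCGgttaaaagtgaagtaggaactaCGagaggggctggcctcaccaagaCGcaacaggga

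Promoter entries matched 5 of the 8 members. The Pdgfra window holds 4 CG dinucleotides and the Cd34 window 6, where the median over 32851 mouse promoter windows of this length is 6. Neither window holds a match to the GC box GGGCGG on either strand, which 32.7% of all windows of this length hold. Neither holds the CCAAT box, spelled as its name and found in 33.8% of windows on either strand. The TATA box, searched as TATAAA on both strands and found in 12.4% of windows, is likewise not among these letters. Both Pdgfa windows, one for each of its annotated starts, are richer in CG, with 19 and 28 dinucleotides and 1 and 2 GC boxes, and the Pdgfc and Pdgfd windows hold 3 CG each, with 1 TATA box in the Pdgfd window. These are matches of letters only. Pdgfrb, Pdgfb and Thy1 are the members with no entry.

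Pdgfra encodes the alpha receptor, which binds PDGF-AA, PDGF-CC and the dimers that contain a B chain. The gene lies on chromosome 5 from 75152292 to 75198215 on the plus strand (GRCm38). Its level was 261, 136, 376, 361, 209.5 and 257 CPM in triple samples 1 to 6, against 86.1 and 64.2 CPM in double samples 1 and 2. Every triple sample lay above both double samples, the lowest being triple sample 2, and the double samples lay close together. The means were 267 ± 90.9 CPM in the triple samples (SD, n = 6) and 75.1 ± 15.5 CPM in the double samples (SD, n = 2). The fitted difference was 1.83 ± 0.41 on the log2 scale (SE), 3.55-fold, with adjusted p = 0.0322 by edgeR, and the exact permutation test over all 28 ways to label 2 of the 8 samples as double gave p = 0.0357, two-sided, the smallest it can give. Antisense genes share some exonic bases with Pdgfra, and the most that any of them held in a sample was 12 reads.

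The Pdgfra call depended on which samples were present. It was lost without double replicate 1 (adjusted p = 0.141 by edgeR), double replicate 2 (0.0596) and triple replicates 1, 4, 5 and 6 (0.0652, 0.0544, 0.0505 and 0.0609), and kept without triple replicate 2 (0.0182) or 3 (0.0495). The size of the difference moved little, between 1.65 and 2.05 on the log2 scale over these 8 fits. The labels carry a description code, which is SN930 for triple samples 4, 5 and 6 and double sample 1. Each of the other samples has a code of its own, and these are pooled here as the other codes. The code as a term set SN930 against this pool. Within SN930 the Pdgfra difference was 1.7 (adjusted p = 0.0686 by edgeR), and within the other codes 1.99 (adjusted p = 0.339), with a single double sample in each set.

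**Figure D1:**
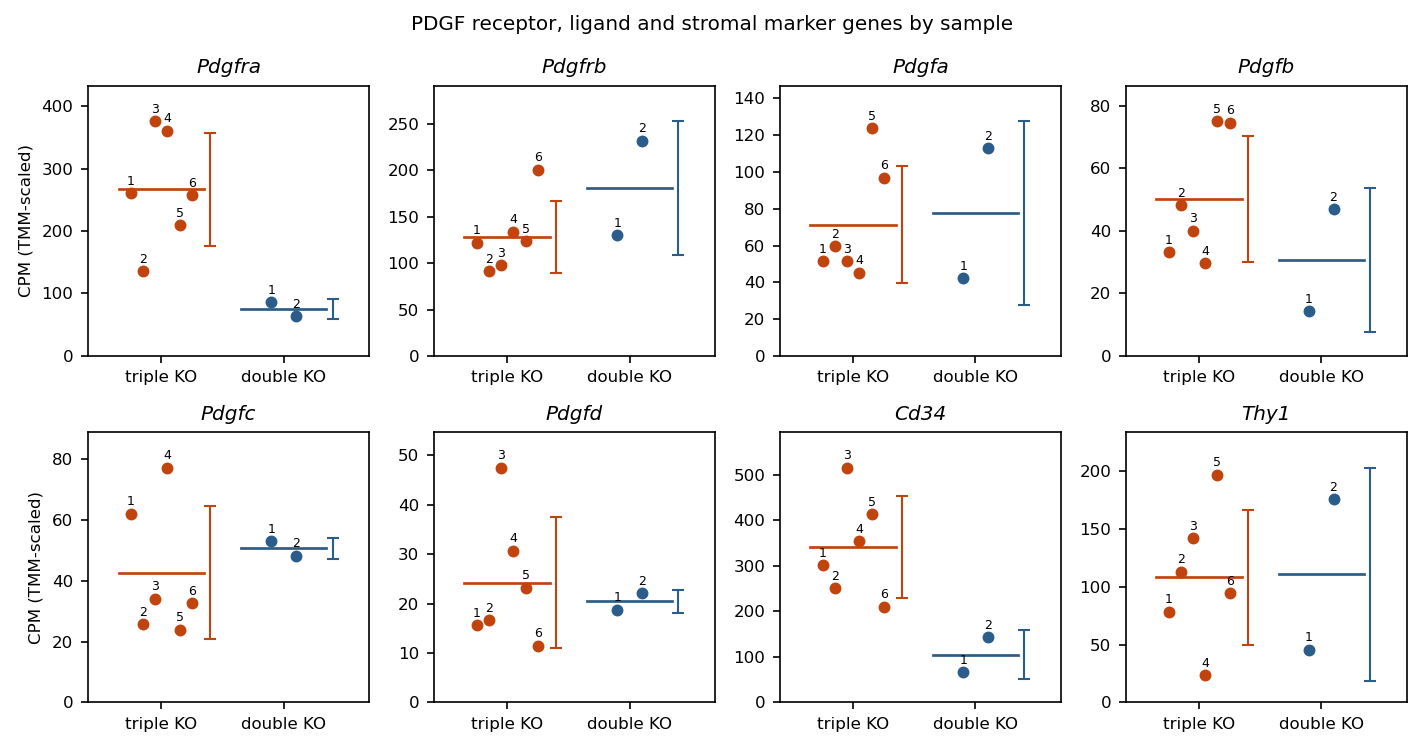
Level of each gene in every sample, in TMM-scaled CPM, with triple knockout samples (n = 6) left of double knockout samples (n = 2). Numbers beside points are the sample numbers, horizontal lines are group means and error bars are 1 SD; for Pdgfra and Cd34 all 6 triple points lie above both double points, and for the other genes the groups overlap.

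Pdgfrb encodes the beta receptor, which binds PDGF-BB and PDGF-DD with highest affinity, and lies on chromosome 18 from 61045150 to 61085061. Its level was 122, 91.3, 98.2, 134, 124 and 201 CPM in triple samples 1 to 6, against 130.2 and 232 CPM in double samples 1 and 2. The groups overlapped, with 4 of the 6 triple samples below both double samples. The difference was -0.50 ± 0.32 on the log2 scale (SE; adjusted p = 0.336 by edgeR; exact permutation p = 0.143). Its size depended on which double sample was present: the value was -0.86 without double replicate 1 and 0 without double replicate 2, and within the samples of code SN930 it was 0.25.

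The balance of the receptor genes was compared as a ratio of counts per kilobase of exon, which needs no library scaling. Pdgfra stood at 1.17, 0.813, 2.09, 1.47, 0.922 and 0.699 times Pdgfrb in triple samples 1 to 6, against 0.361 and 0.151 times in double samples 1 and 2. In both double samples the beta receptor was thus the more abundant transcript per length, and in the triple samples either receptor could lead, the alpha in 3 and the beta in 3. On the log2 scale the ratio averaged 0.15 ± 0.59 in the triple samples (SD, n = 6) and -2.10 ± 0.89 in the double samples (SD, n = 2), a difference of 2.25. The groups did not overlap, and the exact permutation p was 0.0357, the smallest possible. Adjusted over the 2 ratios tested it was 0.0714, which does not pass. The difference was 1.44 among samples of code SN930 and 3.06 among the others. Without double replicate 1 it was 2.88 and without double replicate 2 it was 1.62, where an exact test cannot go below p = 0.143.

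**Figure D2:**
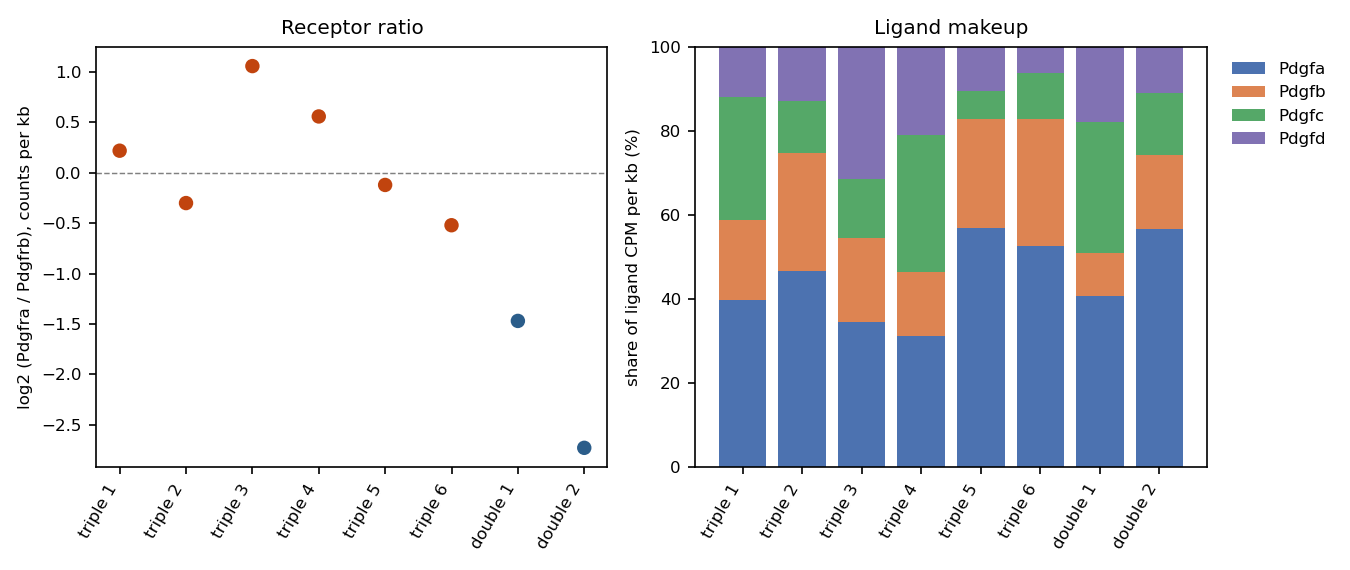
Left, log2 ratio of Pdgfra to Pdgfrb in counts per kilobase of exon in each sample (triple in orange, double in blue); right, share of each ligand gene in the summed ligand CPM per kilobase, in percent. The ratio runs from -0.52 to 1.06 in the triple samples and is -1.47 and -2.73 in the double samples, while Pdgfa takes 31.2% to 57% of the ligand sum in the triple samples and 40.6% and 56.7% in the double samples.

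None of the 4 ligand genes was called by edgeR, DESeq2 or limma-voom, and none had an unadjusted p under 0.05 by edgeR. Pdgfa, which encodes the A chain, a ligand of the alpha receptor, was at 51.4, 59.7, 51.4, 45.3, 124 and 96.9 CPM in triple samples 1 to 6, against 42.3 and 113 CPM in double samples 1 and 2. The double samples lay near the bottom and the top of the triple range, and the difference was -0.12 ± 0.48 on the log2 scale (SE; adjusted p = 0.888 by edgeR; exact permutation p = 0.964). The antisense gene 6330403L08Rik shares 813 exonic bases with Pdgfa and had 251 to 446 reads in the triple samples and 339 and 337 in the double samples. As the use of strand in counting is not stated, reads of this pair cannot be fully told apart.

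Pdgfb encodes the B chain, which binds both receptors and is released by endothelium and platelets. It stood at 33.1, 48.2, 40.0, 29.7, 75 and 74.5 CPM in triple samples 1 to 6, against 14.3 and 46.9 CPM in double samples 1 and 2. All triple samples were above double sample 1, and 3 of 6 were above double sample 2. The difference was 0.71 ± 0.52 on the log2 scale (SE; adjusted p = 0.398 by edgeR; exact permutation p = 0.179). Here too the double sample decided the value, which was 0.08 without double replicate 1 and 1.82 without double replicate 2, with no call in either fit.

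Pdgfc and Pdgfd encode the C and D chains, which are secreted in latent form and need cleavage by proteases such as tissue and urokinase plasminogen activator before they bind. Pdgfc was at 62.1, 25.8, 34.1, 77.2, 23.9 and 32.6 CPM in triple samples 1 to 6, against 53.1 and 48.3 CPM in double samples 1 and 2. The close pair of double values lay inside the triple range, with 2 triple samples above and 4 below them, and the difference was -0.25 ± 0.45 on the log2 scale (SE; adjusted p = 0.745 by edgeR). Pdgfd stood at 15.6, 16.6, 47.5, 30.7, 23.2 and 11.5 CPM in the triple samples, against 18.8 and 22.1 CPM in the double samples. Again the double pair lay in the middle, with 3 triple samples on each side, and the difference was 0.24 ± 0.50 (SE; adjusted p = 0.779 by edgeR).

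Compared per kilobase of exon, Pdgfa led the ligands in 5 of the 6 triple samples and in both double samples, and Pdgfc led in triple sample 4. Pdgfa held 43.6 ± 10.2% of the ligand sum in the triple samples (SD, n = 6) and 48.7 ± 11.4% in the double samples (SD, n = 2). Pdgfb held 15.3% to 30.3% in the triple samples and 10.3% and 17.6% in double samples 1 and 2. The Pdgfc share ranged from 6.7% to 32.6% among the triple samples alone, high in triple samples 1 and 4. Pdgfd held 31.5% in triple sample 3 and 6.19% in triple sample 6. The log2 ratio of Pdgfa to Pdgfc, 1.49 ± 1.18 in the triple samples (SD, n = 6) and 1.16 ± 1.1 in the double samples (SD, n = 2), differed by 0.33 (exact permutation p = 0.75; 0.75 adjusted over the 2 ratios), and its direction changed to -0.44 without double replicate 1. The summed ligand level was 41.0 to 69.9 CPM per kilobase in the triple samples, and 33.4 and 64.1 CPM per kilobase in double samples 1 and 2.

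Cd34 lies on chromosome 1 from 194938819 to 194961279 on the plus strand. Its level was 301, 251, 515, 354, 413 and 209.9 CPM in triple samples 1 to 6, against 66.8 and 143 CPM in double samples 1 and 2. The groups did not overlap, and triple sample 6 was the lowest of its group and double sample 2 the higher of its pair. The means were 341 ± 112 CPM in the triple samples (SD, n = 6) and 105 ± 54.1 CPM in the double samples (SD, n = 2). The difference was 1.7 ± 0.43 on the log2 scale (SE), 3.24-fold, with adjusted p = 0.0476 by edgeR, and the exact permutation test gave p = 0.0357. This call lay just inside the threshold: it was kept without double replicate 2 (adjusted p = 0.0165, difference 2.37), and lost without double replicate 1 (0.29, difference 1.24) and without each of triple replicates 1 to 6 (0.0837, 0.0599, 0.0661, 0.081, 0.0828 and 0.0514). It was also lost with upper-quartile scaling (0.0541). Within code SN930 the difference was 2.30 (adjusted p = 0.0591), and within the other codes 1.3 (adjusted p = 0.399).

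Thy1, on chromosome 9 from 44043384 to 44048579, was the most variable member among the triple samples, with an 8.3-fold range. It stood at 78.6, 113, 142, 23.8, 197 and 94.3 CPM in triple samples 1 to 6, against 45.6 and 176 CPM in double samples 1 and 2. Triple sample 4 was the lowest of all 8 and triple sample 5 the highest, and the double samples lay between them. The difference was -0.03 ± 0.70 on the log2 scale (SE; adjusted p = 0.979 by edgeR; exact permutation p = 1), and it took either sign: -0.71 without double replicate 1, 1.26 without double replicate 2, and 0.07 when libraries were scaled by their size only. Triple sample 4, with the lowest Thy1, had 361 CPM of Pdgfra, exceeded only by triple sample 3.

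**Figure D3:**
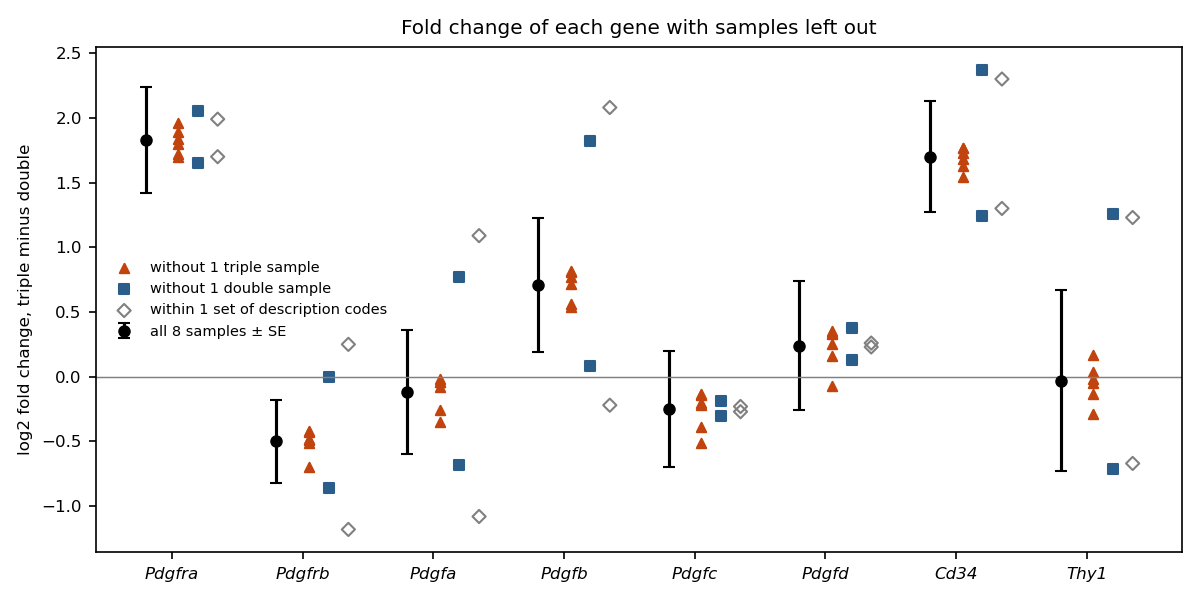
Log2 fold change of each gene, triple minus double, from all 8 samples with its SE (black), with 1 sample left out (orange triangles for a triple sample, blue squares for a double sample) and within each set of description codes (open diamonds). Pdgfra stays between 1.65 and 2.05 and Cd34 between 1.24 and 2.37, while Pdgfrb, Pdgfa, Pdgfb, Pdgfd and Thy1 have points on both sides of 0.

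Per kilobase of exon, the order of mean levels in the triple samples was Cd34 (46.7 ± 15.4 CPM per kilobase, SD, n = 6), Thy1 (36.1 ± 19.6), Pdgfra (26.6 ± 9.07), Pdgfrb (23.5 ± 7.13), Pdgfa (22.9 ± 10.2), Pdgfb (12 ± 4.84), Pdgfc (8.37 ± 4.29) and Pdgfd (7.67 ± 4.20). Each gene overlapped the next in this order, and only Pdgfa over Pdgfb held in all 6 triple samples. In the double samples the order was Thy1 (36.9 ± 30.7 CPM per kilobase, SD, n = 2), Pdgfrb (33.1 ± 13.2), Pdgfa (25 ± 16.1), Cd34 (14.4 ± 7.42), Pdgfc (9.96 ± 0.667), Pdgfra (7.49 ± 1.55), Pdgfb (7.35 ± 5.53) and Pdgfd (6.48 ± 0.726). In that group Pdgfc lay above Pdgfra with no overlap, and the other neighbours overlapped. By rank, Cd34 was number 1 in the triple group and number 4 in the double group, Pdgfra number 3 and number 6, and Pdgfd number 8 in both.

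The genes that followed each stromal or receptor member most closely were found by the root mean square difference of centred log2 levels over the 8 samples, among 11913 genes with a mean of at least 5 CPM. Nearest to Pdgfra were Cyp7b1 (0.28), an oxysterol hydroxylase, Ecm1 (0.29), a secreted matrix protein, and Mcf2l (0.29), where the median gene was at 0.95. Nearest to Cd34 were Cdk14 (0.26), a cyclin-dependent kinase, Cd248 (0.26), the stromal surface protein endosialin, and Magee1 (0.26). Pdgfra and Cd34 were at 0.55 from each other. Nearest to Pdgfrb were the FGF receptor gene Fgfr1 (0.14), the mitochondrial peptidase gene Pitrm1 (0.15) and the homeobox gene Tgif1 (0.16), with a median of 0.58. Thy1 had no neighbour as close: Zfhx2 was at 0.40, Arhgap6 at 0.42 and Aldh1a3, a retinaldehyde dehydrogenase, at 0.45, with a median of 1.05. Within the set, Pdgfa came closest to Thy1 (0.67) and Pdgfb next (0.72). Pdgfra was at 1.12 from Pdgfrb, further than the median gene.

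**Figure D4:**
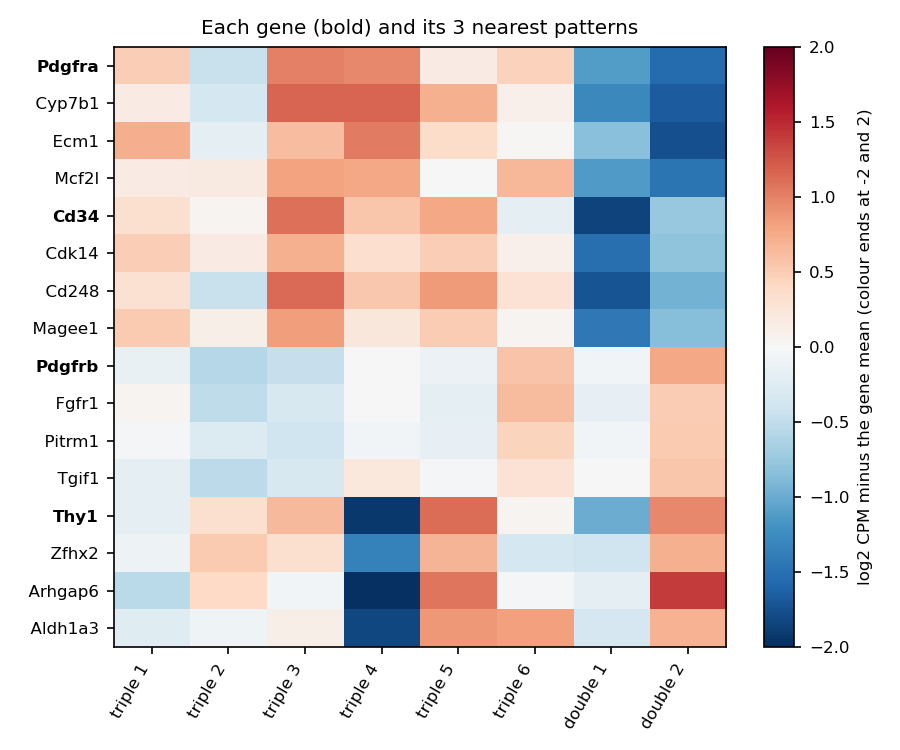
Log2 CPM of Pdgfra, Cd34, Pdgfrb and Thy1 (bold) and of the 3 genes nearest to each, minus the gene's own mean over the 8 samples, with the 6 triple samples left of the 2 double samples. The Pdgfra and Cd34 blocks are lowest in the double samples, the Pdgfrb block is highest in double sample 2 and triple sample 6, and the Thy1 block is lowest in triple sample 4.

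Genes beside the receptors did not all move with them. Pdgfra lies in a run of receptor tyrosine kinase genes with Kit and Kdr. Kit, the stem cell factor receptor, was at 3.5 to 14.3 CPM in the triple samples and 1.94 and 7.15 CPM in double samples 1 and 2 (adjusted p = 0.445 by edgeR). Kdr, the main VEGF receptor of endothelium, was at 20.5 to 61.0 CPM in the triple samples and 26.1 and 31.8 CPM in the double samples (adjusted p = 0.589). On the other side, Chic2 had a difference of -0.61 ± 0.26 on the log2 scale (SE; adjusted p = 0.17 by edgeR) and Gsx2 had no count in any sample. Csf1r, the receptor gene next to Pdgfrb, was at 389 to 574 CPM in the triple samples and 126 and 289.6 CPM in the double samples, with no overlap, a difference of 1.18 ± 0.32 (SE) and adjusted p = 0.0588. It is also a macrophage gene. On the other side of Pdgfrb, Slc6a7, a proline transporter gene, fell by 3.03 ± 0.77 (SE; adjusted p = 0.0467 by edgeR), and its call was lost without double replicate 1 (0.228) and without triple replicates 1, 2, 3 and 4 (0.0722 to 0.0971). Cdx1 was at no more than 0.0317 CPM in the triple samples, against 0.121 and 0.144 CPM in the double samples. Hmgxb3 had a difference of 0.17 ± 0.20 (adjusted p = 0.609).

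Transcripts for processing and capture of the ligands gave no call: 0 of 10 genes passed edgeR's test, with 2 at an unadjusted p under 0.05, 1 called by DESeq2 and 0 by limma-voom. The plasminogen activator genes Plat and Plau were at 70.0 to 186 and 64.3 to 126 CPM in the triple samples, and at 74.6 to 113 and 69.9 to 182 CPM in the double samples. St14 (matriptase, which can cleave PDGF-D) had a difference of 1.37 ± 0.46 on the log2 scale (SE; adjusted p = 0.0996), and Pdgfrl, a PDGF receptor-like gene, one of -1.1 ± 0.48 (adjusted p = 0.175). The median of this list was 0.09, against 0.02 over all genes tested.

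Downstream of the receptors, 2 of 29 tested signalling genes rose, 0 fell and 27 did not pass, with a median log2 fold change of -0.11. These counts depended on the tool and the samples: DESeq2 called 2 higher and 3 lower, the samples of code SN930 gave 2 higher and 3 lower, and leaving out double replicate 2 gave 3 higher and 6 lower, while without double replicate 1 or triple replicate 1 there were 0. Src, a tyrosine kinase recruited by both receptors, was at 122 to 170.2 CPM in the triple samples and 35 and 76.1 CPM in double samples 1 and 2, a rise of 1.46 ± 0.30 on the log2 scale (SE; adjusted p = 0.0249 by edgeR). Shc1, the adaptor that links receptors to Ras, was at 142 to 201 CPM in the triple samples and 71.8 and 112 CPM in the double samples, a rise of 0.93 ± 0.22 (adjusted p = 0.0399). Src lost its call without double replicate 1 (0.0823) and triple replicate 1 (0.0553), and Shc1 without double replicate 1 (0.21) and triple replicates 1, 3, 4, 5 and 6 (0.0686 to 0.0796). Among 24 genes known to respond to PDGF or to growth factors in general, 1 rose, 1 fell and 22 did not pass, with a median of 0.36. DESeq2 called 3 higher and 2 lower, the samples of code SN930 gave 7 higher and 0 lower, and leaving out double replicate 2 gave 7 higher and 4 lower, against 0 without double replicate 1 or triple replicates 1, 2 and 3. Spred1, an inhibitor of Ras signalling, rose by 0.80 ± 0.17 (adjusted p = 0.0263), and Junb, an AP-1 factor, fell by 0.91 ± 0.21 (adjusted p = 0.035). Both lost their call without double replicate 1, with adjusted p of 0.119 and 0.28, and in 5 further fits without a triple sample, with 0.0508 to 0.0737. Over all genes tested, 2.94% were called higher and 5.41% lower.

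Among 14 ligand and receptor genes related by family, those of VEGF and of the other class III receptors, 1 rose and 13 did not pass (median 0.28). Over all genes tested 2.94% were called higher. Without triple replicate 1 the count was 0. The list median was 0.19 without double replicate 1 and 1.63 without double replicate 2. Vegfd, a lymphatic growth factor gene of the PDGF and VEGF superfamily, was at 64.2, 51.6, 110.1, 48.1, 37.5 and 39.7 CPM in triple samples 1 to 6, against 12.4 and 4.19 CPM in double samples 1 and 2. All triple samples were above both double samples, and the rise was 2.82 ± 0.59 on the log2 scale (SE; adjusted p = 0.0278 by edgeR). It lost its call without double replicate 1 (0.057) and triple replicate 1 (0.0581). Of 9 relatives of CD34 and partners of Thy1, 1 rose and 1 fell, against 2.94% of all genes called higher and 5.41% lower. Without triple replicates 1, 2, 4 or 6 there were 0. Their median was 0.15 without double replicate 1 and 0.31 without double replicate 2. Itgav, the alpha v integrin chain, rose by 1.06 ± 0.24 (adjusted p = 0.0328) and Sdc4 (syndecan 4) fell by 1.26 ± 0.31 (adjusted p = 0.0426). With double replicate 1 left out, Itgav had an adjusted p of 0.208 and Sdc4 one of 0.432, and each was also lost in 5 of the 6 fits without a triple sample (0.055 to 0.0864). The CD34 relatives Podxl and Podxl2 were at 30.2 to 53.1 and 10.2 to 25.8 CPM in the triple samples and at 37.4 to 48.0 and 10.0 to 15.2 CPM in the double samples, with no call.

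Of the marker genes of fibroblasts, a minority passed the test, all of them higher like Pdgfra and Cd34. Among 29 markers with enough reads 4 rose and 0 fell, against 2.94% of all genes tested called higher and 5.41% lower. The remaining 25 missed the threshold. Of the 29, 25 had a positive log2 fold change, and the median was 1.01. Their summed level was 31700 to 63422 CPM in the triple samples and 18391 and 21150 CPM in double samples 1 and 2, with no overlap. Of all single genes tested, 24.1% had no overlap either. The largest parts of the sum were Col1a1, Col1a2 and Col3a1, with means of 9105, 9368 and 8491 CPM in the triple samples. Col1a1 and Col1a2 overlapped between the groups, and Col3a1 did not. Twist2, a mesenchymal transcription factor, rose by 3.69 ± 0.68 on the log2 scale (SE; adjusted p = 0.0187 by edgeR), the collagen gene Col5a2 by 1.48 ± 0.30 (adjusted p = 0.0234) and Cd248 by 1.81 ± 0.43 (adjusted p = 0.0397). The other one called was Postn (periostin), which rose by 1.58 ± 0.41 (adjusted p = 0.0483) and was named after its value was seen. It lost its call in 7 of the 8 fits without a sample (0.0656 to 0.241). Other fibroblast genes did not pass, such as Pi16, at 9.48 to 116 CPM in the triple samples and 42.3 and 38.0 CPM in the double samples, and Fap, at 22.3 to 51.1 CPM in the triple samples and 37.8 and 48.5 CPM in the double samples. Tcf21 was at 0.0317 CPM in triple sample 2 and at 0 in the other samples. Without double replicate 1 the median of the 29 was 0.89. The number called was 1 without triple replicate 1 and 2 without triple replicates 4, 5 or 6. With DESeq2 it was 10, where 8.52% of all genes were called higher. Twist2 lost its call only without double replicate 1 (adjusted p = 0.127), Col5a2 also without triple replicate 1 (0.0858 and 0.0528), and Cd248 without double replicate 1 and triple replicates 1, 3, 4, 5 and 6 (0.0548 to 0.254).

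**Figure D5:**
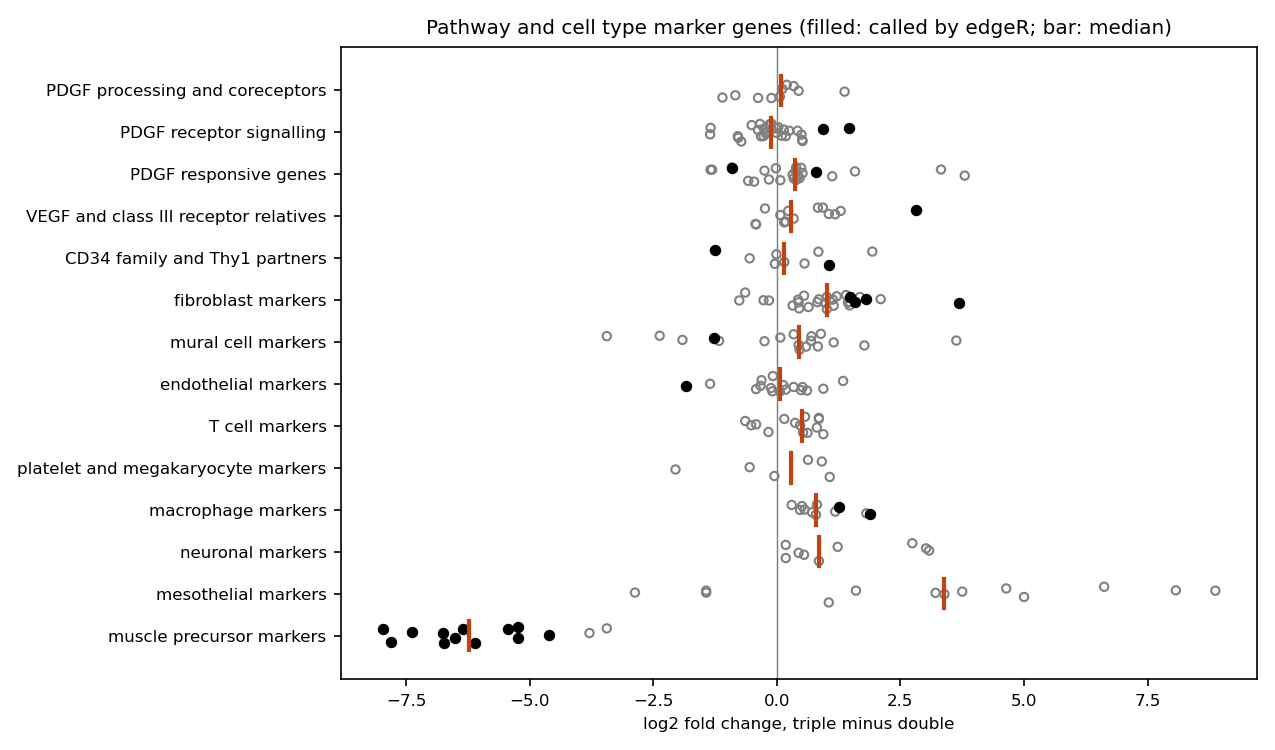
Log2 fold change, triple minus double, of every tested gene in 14 lists of pathway and cell type marker genes; filled points were called by edgeR and orange bars are list medians. Fibroblast markers lie mostly right of 0 with a median of 1.01, PDGF signalling genes lie around 0, and muscle precursor markers lie left of 0 with a median of -6.23.

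Markers of the other cells that make these transcripts were compared beside them. For pericytes and other mural cells, which carry the beta receptor, 1 of 18 markers fell and 17 did not pass (median 0.45), a share near the 5.41% of all genes called lower. The count was 3 with DESeq2 and 0 with limma-voom. Notch3 fell by 1.28 ± 0.33 on the log2 scale (SE; adjusted p = 0.0487 by edgeR), with calls lost in 7 of 8 fits without a sample (0.0576 to 0.138). The mural sum was 614 to 2236 CPM in the triple samples and 10293 and 2819 CPM in double samples 1 and 2. Des, which muscle also makes, gave 8041 CPM of the sum in double sample 1. Endothelial markers, of cells that make PDGF-B and carry CD34, gave 1 lower of 17 (median 0.06), again near the 5.41% of all genes called lower, and sums of 449.7 to 1080 CPM in the triple samples and 738 and 550.2 CPM in the double samples. The one called was Tek, at -1.83 ± 0.48 (adjusted p = 0.0499), which stood at 89.7 CPM in double sample 1 alone. It lost its call in 7 of the 8 fits without a sample, where its adjusted p was 0.0594 to 0.747. The share of Cd34 that came from endothelium was not tested.

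T cell markers, of cells that carry Thy1, gave 0 calls among 14 by edgeR, with 0 at an unadjusted p under 0.05 and 0 by DESeq2 or limma-voom. Their sum was 31.9 to 86.8 CPM in the triple samples and 23.0 and 54.6 CPM in double samples 1 and 2. Triple samples 4 and 5, the lowest and highest for Thy1, also had the lowest and highest T cell sums among the triple samples. Triple sample 3 had nearly the same sum as triple sample 4, 32.2 against 31.9 CPM. Its Thy1 was 142 CPM, against 23.8 CPM in triple sample 4. The part of T cells in Thy1 was not tested. Platelet markers, of cells that store PDGF, gave 0 of 6 calls by edgeR (2 at an unadjusted p under 0.05, 1 by DESeq2, 0 by limma-voom) and sums of 22.9 to 33.0 CPM in the triple samples and 19.4 and 19.5 CPM in the double samples. Macrophage markers gave 2 higher of 11 (median 0.79), against 2.94% of all genes called higher, and 0 without triple replicates 1, 2 or 4. Over the 12 then tested, the median was 0.23 without double replicate 1 and 1.88 without double replicate 2. Macrophage sums were 2550 to 4259 CPM in the triple samples and 1453 and 3029 CPM in the double samples. Cd68, a lysosomal protein of macrophages, rose by 1.26 ± 0.27 (adjusted p = 0.0279) and Itgam (CD11b) by 1.89 ± 0.46 (adjusted p = 0.043). Both lost their call without double replicate 1 (0.187 and 0.134) and in fits without a triple sample, 4 for Cd68 and 6 for Itgam (0.0506 to 0.0758). Neuronal markers gave 0 calls among 9 by edgeR (median 0.85; 1 at an unadjusted p under 0.05, 2 by DESeq2, 0 by limma-voom), with Gap43 at 3.02 ± 1.06 (adjusted p = 0.11) and sums of 137 to 404 CPM in the triple samples and 64.3 and 218 CPM in the double samples.

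Most muscle precursor markers fell. Among 14 such markers 12 fell and 0 rose, against 5.41% of all genes tested called lower. The remaining 2 missed the threshold, and the median log2 fold change was -6.23. The count of lower calls was 5 without double replicate 1, 8 without triple replicate 1 or 5, 6 within code SN930 and 1 within the other codes, and 14 without double replicate 2. Their sum was 45.2 to 1142 CPM in the triple samples and 14788 and 2945 CPM in double samples 1 and 2. Des, also in the mural list, gave 39.7 to 1013 CPM of it in the triple samples. In double samples 1 and 2 Des gave 8041 and 818 CPM, so it overlapped between the groups, and it was not called. Cdh15 (M-cadherin) fell by 7.39 ± 0.79 on the log2 scale (SE; adjusted p = 0.00259 by edgeR), Pax3 by 4.6 ± 0.53 (adjusted p = 0.00328) and Myf5 by 6.76 ± 0.83 (adjusted p = 0.00453), and all 3 stayed called in each of the 8 fits without a sample. Pdgfra was lower in both double samples, which had the higher marker sums. Of these, double sample 1 had both the larger sum and the higher Pdgfra, 86.1 CPM against 64.2 CPM in double sample 2. The part of these markers in the Pdgfra difference was not tested. Mesothelial markers gave 0 calls among 13 tested by edgeR, with 1 at an unadjusted p under 0.05, 1 by DESeq2 and 0 by limma-voom. They were uneven, with Wt1 at 33.2 CPM in triple sample 3, no more than 1.76 CPM in the other triple samples and no more than 0.0361 CPM in the double samples. Krt8 and Krt18 of the same list peaked instead in double sample 2, with 799 and 203 CPM. Double sample 1 had 16.5 and 10.6 CPM of them, and no triple sample exceeded 179 and 71.2 CPM. Mesothelial sums spanned 167 to 1333 CPM across the triple group. Double sample 1 had a sum of 299 CPM, and double sample 2 had the highest, 1470 CPM. The mesothelial median was 3.39 over the 13 tested by edgeR and 0.68 over 13 by limma-voom. Without triple replicate 3 only 11 were tested, with a median of 0.07 and 1 called.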

How the data were processed

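Each sample has its own deposited table of raw counts by gene, whole numbers with no scaling, per the file headers. HTSeq, DESeq2, mm10 and GRCm38 appear in the submitters' processing notes without a stated role. Aligner, annotation release and strand setting: not given in the sources used here. Coordinates are as deposited, moved to count from 1. Exon lengths are merged GENCODE M21 exons, and promoters are RefSeq sequences. Pdgfb has other ends in GENCODE M21 than in the files, so its length per kilobase is approximate.

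The low-count filter was filterByExpr and library scaling was TMM. The test was that of edgeR 4.0.16 in R 4.3.3 (quasi-likelihood, no covariate, triple minus double), with Benjamini-Hochberg adjustment over 17709 genes and a threshold of 0.05. Standard errors came from the test statistic. Log2 levels used a prior count of 2 and ratios a pseudocount of 0.5 counts. The exact permutation test ran over all 28 labelings. DESeq2 1.42.0 and limma 3.58.1 were alternatives, with other scalings, filters, the description code and each sample left out. The fits were tested on simulated data.

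Members and lists were chosen with earlier results of these data known, and some genes stand in 2 lists. Named genes are the members, up to 3 called genes of smallest p per list (2 where none was called), the 3 nearest patterns and the receptors' neighbours. Postn, Upk3b, Msln, Tcf21, Plat, Plau, Podxl, Podxl2, Pi16, Fap, Ccl2, Ccl7, Acta2, Des, Col1a1, Col1a2 and Col3a1 were named after their values were seen. Replicate numbers follow accession order and pair nothing. The labels do not say whether samples are separate animals or cultures, so p-values measure the spread between samples, which may be technical. No 2 samples agreed within sampling noise (lowest median chi-square per gene 8.33). Between the 2 double samples this value was 60. Double sample 2 was closer to every triple sample, at 14.7 to 24.2, than to double sample 1.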

Additional observations from a re-analysis of the deposited data

Results flagged for a closer look

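Among 71 genes checked, 11 had a triple sample whose gap to its nearest neighbour exceeded 0.625 of the range of the 6 triple samples, a distance that chance gives in about 1 of 20 such groups. None of the 8 members was among them. Of the genes flagged, Upk3b, Tcf21, Plat and Ccl7 were named after their values were seen. The number flagged thus does not test for an excess of such gaps. Triple sample 3 was high for Vegfd, at 110.1 CPM with the next sample at 64.2 CPM, for Upk3b, at 173 CPM with the next at 0.365 CPM, for Wt1, at 33.2 CPM with the next at 1.76 CPM, and for Bnc1, at 15.1 CPM with the next at 4.87 CPM. Upk3b, Wt1 and Bnc1 are mesothelial genes, and the same sample held the highest Pdgfra, Cd34 and Pdgfd levels. Triple sample 1 was high for Plat, at 186 CPM with the next at 97.3 CPM, and for Ccl7, at 197 CPM with the next at 83.3 CPM. Triple sample 5 was high for the T cell kinase gene Lck, at 15.1 CPM with the next at 7.3 CPM. Triple sample 6 was high for Pitrm1, at 142 CPM with the next at 102 CPM, and was also the highest triple sample for Pdgfrb. Triple sample 4 was low for Nf2, at 62.7 CPM with the next at 87.1 CPM. Cdx1 and Tcf21 were each at 0.0317 CPM in triple sample 2 and at 0 in the other triple samples, so these flags rest on levels near the floor.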

How the results depend on the processing

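No paired analysis was possible because the labels give the samples no shared replicate numbers. The number of genes called was 1478, and 3380 with DESeq2, 969 with library size only (added after seeing the data), 962 with the description code as a term, 1 among samples of other codes and 315 to 5579 with a sample left out. Scaling by library size only moved the median of all genes to 0.21. Pdgfra was called with DESeq2, limma-voom and under each scaling and filter tried, and not with the code as a term (1.84), within SN930 (1.7), within other codes (1.99) or in 6 of 8 fits without a sample (1.65 to 2.05 over all 8). Cd34 was not called with upper-quartile scaling (1.75), library size only (1.84), the code as a term (1.76), SN930 (2.3), other codes (1.3) or in 7 of 8 fits without a sample (1.24 to 2.37). No setting called another member, and signs turned for Pdgfrb (0.25 within SN930), Pdgfa (1.09 within SN930; -0.68 to 0.77 without a sample), Pdgfb (-0.22 within other codes), Pdgfd (-0.07 to 0.38 without a sample) and Thy1 (0.02 with limma-voom, 0.01 with upper quartile, 0.07 with library size only, 0.12 with the code, 1.23 within SN930, and -0.71 to 1.26 without a sample). Without a sample Pdgfb ran from 0.08 to 1.82, Pdgfc from -0.51 to -0.13 and Pdgfrb from -0.86 to 0. The receptor ratio ran from 1.62 to 2.88 and the ratio of Pdgfa to Pdgfc from -0.44 to 1.11. Leaving out a double sample leaves 1, assumed to vary like the others; causes were not tested. Of the 26 called genes named here, 26 kept their direction in every setting, and 3 kept their call without double replicate 1.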

Other observations

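Genes of the chemokines Ccl2 and Ccl7, which draw monocytes and which PDGF can induce in fibroblasts, had no overlap between the groups (both named after their values were seen). Ccl2 stood at 278, 53.2, 34.0, 141, 131 and 77.4 CPM in triple samples 1 to 6, against 2.87 and 14.2 CPM in double samples 1 and 2 (adjusted p = 0.0551 by edgeR). Ccl7 stood at 27.8 to 197 CPM in the triple samples, against 2.75 and 14.6 CPM in the double samples (adjusted p = 0.0572). Neither passed the threshold. Of all genes tested, 24.1% had no overlap. Smooth muscle actin, Acta2, a gene of pericytes and myofibroblasts, stood at 75.7 to 644 CPM in the triple samples, against 1384 and 1395 CPM in the double samples, again with no overlap and no call (adjusted p = 0.066).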
